A study of Mus musculus with 4 samples.

Results

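The regions described here are the peaks of dimethylated lysine 36 of histone H3 (H3K36me2) in or within 100 kb of the 4 class IIa histone deacetylase genes, Hdac9, Hdac4, Hdac7 and Hdac5, with Twist1, the next protein-coding gene beyond the 3′ end of Hdac9. There were 52 such peaks among 16060 in all, 29 of 7699 in the melatonin list and 23 of 8361 in the untreated list. The genes were selected on the number of called peaks at Hdac9 in these lists, so peak numbers at these genes are a description and carry no test.

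Chromatin immunoprecipitation and sequencing (ChIP-seq) was done on cultured mesenchymal stem cells (MSCs) of mouse bone marrow, from which bone-forming cells, fat cells and cartilage cells arise. One ChIP library came from MSCs given 1 µM melatonin for 24 hours and one from untreated MSCs, and each had an input library made without antibody. The series text speaks of old donors, while the labels of these samples give no age, sex or strain and do not say how many animals were pooled. With 1 library per condition, each difference below is between libraries and has no replicate check. Per the headers of the peak lists, ChIP depth was 14180076.5 tags with melatonin and 13198427.5 tags in untreated MSCs. Cell identity was not checked here, because peak lists give no expression of marker genes.

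Class IIa deacetylases move between nucleus and cytoplasm. In the nucleus they bind MEF2 transcription factors and bring in corepressors, and kinases of the CaMK, PKD and SIK families mark them for binding by 14-3-3 proteins and export. HDAC9 also has a splice form without the deacetylase domain that still represses MEF2, and in skeletal cells HDAC4 and HDAC7 repress RUNX2, the factor that commits cells to bone. TWIST1 is a basic helix-loop-helix factor that restrains osteoblast differentiation, and stretches inside the mouse Hdac9 gene are known to act as enhancers of Twist1 in embryonic limb and branchial arch. H3K36me2, which NSD2 and related enzymes write, usually spreads over broad stretches of gene bodies and intergenic sequence rather than narrow sites.

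Hdac9 lies on chromosome 12 at 34047580 to 34917095 (GRCm38, minus strand, gene ID 79221) and spans 869.516 kb. Its transcription runs towards lower coordinates, so that its 3′ end faces Twist1 (33957671 to 33959831, plus strand). RefSeq (GRCm38.p6) lists promoter windows at 2 starts of Hdac9, and these are shown with that of Twist1 because distances below are counted from these starts and no peak of either list reached any of them. The windows run from 250 bases before to 50 bases after the start, 5′ to 3′ on the strand of the gene. Capitals mark CpG dinucleotides. The first window is the 5′ start of Hdac9 (chr12:34917046-34917345, minus strand), the second its internal start (chr12:34528840-34529139, minus strand) and the third the Twist1 start (chr12:33957421-33957720, plus strand).
Hdac9 5′ start: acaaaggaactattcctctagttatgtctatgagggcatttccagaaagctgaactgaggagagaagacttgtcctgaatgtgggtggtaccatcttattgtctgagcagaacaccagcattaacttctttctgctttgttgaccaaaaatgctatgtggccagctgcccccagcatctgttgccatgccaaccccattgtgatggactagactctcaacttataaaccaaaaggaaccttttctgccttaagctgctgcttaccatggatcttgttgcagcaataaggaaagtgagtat
Hdac9 internal start: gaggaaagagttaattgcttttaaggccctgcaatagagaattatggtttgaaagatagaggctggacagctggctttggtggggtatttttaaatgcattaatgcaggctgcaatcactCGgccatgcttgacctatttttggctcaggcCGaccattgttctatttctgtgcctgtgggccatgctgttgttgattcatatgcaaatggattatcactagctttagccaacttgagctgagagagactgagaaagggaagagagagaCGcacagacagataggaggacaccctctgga
Twist1 start: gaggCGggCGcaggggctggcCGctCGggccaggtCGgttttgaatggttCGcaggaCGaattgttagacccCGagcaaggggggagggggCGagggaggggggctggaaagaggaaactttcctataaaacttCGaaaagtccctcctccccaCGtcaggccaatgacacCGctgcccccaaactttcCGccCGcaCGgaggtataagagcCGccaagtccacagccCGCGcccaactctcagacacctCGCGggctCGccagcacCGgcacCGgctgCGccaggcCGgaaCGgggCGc

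The Hdac9 windows differed plainly from that of Twist1 in base composition. The window of the 5′ start held 0 CpG dinucleotides at 44% G+C, that of the internal start held 3 at 45.3%, and that of Twist1 held 27 at 66%. Over 32851 mouse promoter windows the medians were 7 CpG dinucleotides and 52.7% G+C. The pattern CTANNNNTAG, a loosened form of the MEF2 motif that reads the same on both strands, matched the internal Hdac9 window as CTAGCTTTAG, beginning 32 bases before the start. It matched neither the 5′ Hdac9 window nor the Twist1 window, and 3.69% of all windows held it. Among the other class IIa genes it matched the Hdac5 window, as CTATTTTTAG, and no window of Hdac4 or Hdac7. The MEF2 motif proper has only A or T between the outer letters, which the Hdac5 match meets and the Hdac9 match does not. A match is a description of letters and no evidence of binding.

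Hdac9 carried many small peaks in both libraries. There were 22 peaks in the gene body with melatonin (exact 95% Poisson interval 13.8 to 33.3) and 21 in untreated MSCs (13 to 32.1). These intervals express counting error alone. Per the headers, at most 1 tag per bp was considered in both lists, and PCR copies could not otherwise be told from separate molecules. Over all 21631 protein-coding genes of chromosomes 1 to 19 and X, 5.54% had a melatonin peak in the body, 5.27% had an untreated peak, and 2.67% had a peak of each list. Since these peaks chose the gene, nothing is read from that contrast. Melatonin peaks divided by untreated peaks gave 1.05 in Hdac9, 0.921 over the whole lists and 0.953 on chromosome 12, given as a description.

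The individual peaks in Hdac9 were ordinary members of their lists. All values per peak are the authors' own. ChIP signal per 10000000 tags had a lowest value of 12, a median of 13 and a highest value of 16.6 with melatonin, and 11.4, 13.6 and 24.2 in untreated MSCs. The medians over the whole lists were 13.4 with melatonin and 13.6 without. Fold over input had a median of 4.72 with melatonin (4.02 to 15.22) and 4.98 in untreated MSCs (4.23 to 11.86), where the whole melatonin list had a median of 5.11 and the whole untreated list one of 4.87. Many Hdac9 peaks thus stood close to the fold of 4 that the peak finder asked for, and the lowest melatonin peak, 34501104 to 34502104, was called at 4.02. A fold of 6 or more was reached by 7 melatonin peaks and 7 untreated peaks, which is 31.8% and 33.3% of them, beside 30.1% of all melatonin and 24.1% of all untreated peaks.

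The highest folds rested on few input tags. With melatonin they were 15.22 at 34189835 to 34190835 and 14.78 at 34552834 to 34553834, each over 1 input tag. In untreated MSCs they were 11.86 at 34316739 to 34317739 and 10.57 at 34776352 to 34777352, each over 1.6 scaled input tags. Input tags over the Hdac9 peaks had a median of 3.5 (1 to 5) with melatonin and 3.9 (1.6 to 6.2) without. The strongest region by ChIP signal was an untreated one at 34452658 to 34454165, 1507 bp wide, with a signal of 24.2 and a fold of 5.13. The 22 melatonin peaks in the body all had the smallest width of 1000 bp, while 5 of 21 untreated peaks were wider. That width was held by 79.2% of all melatonin and 79.6% of all untreated peaks. Peaks covered 2.53% of the gene with melatonin and 2.60% without, and the mean signal per kb of peak was 13.2 with melatonin and 13.3 without. No broad continuous domain over Hdac9 was thus called in either list. Per the headers, the Poisson tag threshold was 18 with melatonin and 17 without. It was not a floor on the deposited values, since untreated peaks in Hdac9 had as few as 15 ChIP tags. Peaks held about 1.12% of all tags with melatonin and 1.24% without, also per the headers. A broad but weak domain could therefore go uncalled.

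**Figure D1:**
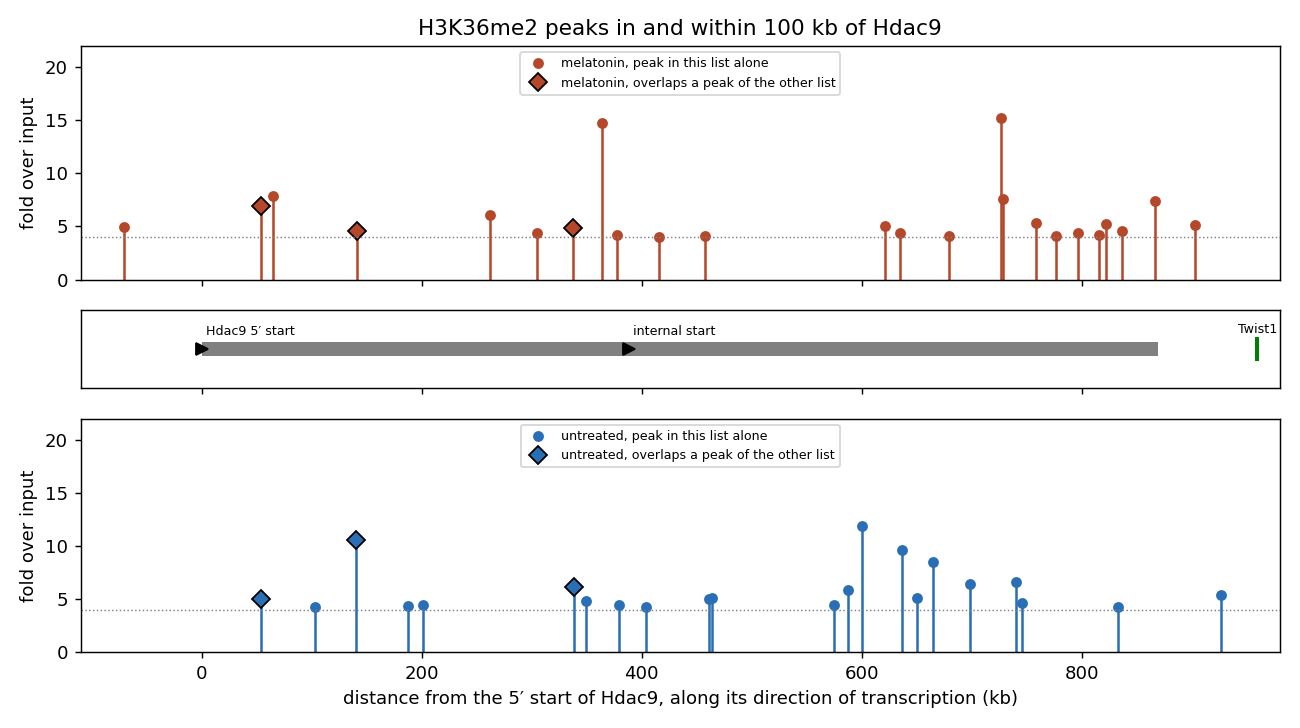
Position of each peak along Hdac9 and its 100 kb flanks, as distance in kb from the 5′ start (x axis), against the authors' fold over input (y axis), for the melatonin library (top) and the untreated library (bottom), with the gene, its 2 starts and Twist1 between them. Diamonds mark the 3 peaks of each list that overlap a peak of the other, all of them in the 5′ part of the gene, and the dotted line is the required fold of 4.

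The peaks were spread over the whole gene, but the libraries placed them differently. With the gene divided into 4 equal parts from the 5′ start, the melatonin list had 3, 6, 3 and 10 peaks in them and the untreated list 5, 4, 7 and 5. The part next to Twist1 thus held the most melatonin peaks, and the part before it the most untreated peaks. In 100 kb bins the melatonin list had 5 peaks from 700 to 800 kb and 4 in the last, shorter bin, where the untreated list had 2 and 1. From 500 to 600 kb the order was turned round, with 0 melatonin and 3 untreated peaks. These counts are small, and no test of the placement was made.

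**Figure D2:**
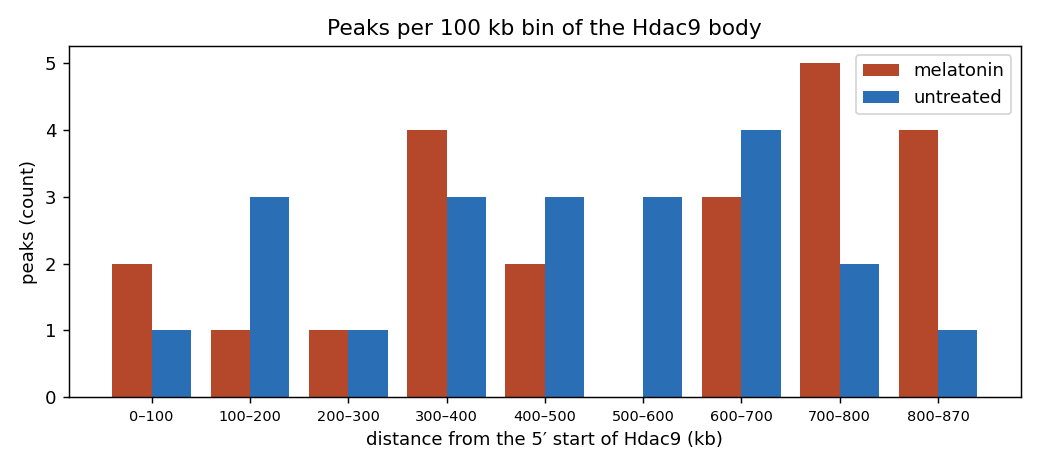
Number of peaks (y axis) per 100 kb bin of the Hdac9 body by distance from the 5′ start (x axis), with melatonin bars left of untreated bars in each bin. The last bin, which is shorter than the others, held 4 melatonin peaks and 1 untreated peak, and the bin from 500 to 600 kb held 0 and 3.

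The longest stretch without a peak inside the gene differed between the libraries, and each held peaks of the other one. The longest melatonin gap ran from 34296460 to 34459392 (163 kb) and held 5 untreated peaks. The longest untreated gap ran from 34579201 to 34715558 (136 kb) and contained or touched 3 melatonin peaks. Neighbouring peaks of one list were a median of 29.1 kb apart with melatonin and 30.6 kb apart without. Over chromosome 12 the medians were 62.4 kb with melatonin and 47.2 kb without. Since Hdac9 was chosen for its many peaks, nothing is read from that contrast. The closest melatonin neighbours were 0.632 kb apart, at 34188203 to 34189203 and 34189835 to 34190835.

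Few of the peaks in Hdac9 were called at the same place in both libraries. Of the melatonin peaks 3 of 22 (13.6%) overlapped an untreated peak, and 3 of 21 untreated peaks (14.3%) overlapped a melatonin peak, beside 6.12% of all melatonin and 5.6% of all untreated peaks, and 5.96% and 5.43% of those on chromosome 12. With 3 pairs, the difference from those shares rests on 1 or 2 peaks, and nothing is read from it. The closest match was 53.5 kb inside the 5′ start, where the melatonin peak at 34863057 to 34864057 (fold 6.96) and the untreated peak at 34863092 to 34864092 (fold 4.98) shared 965 bp and began 35 bp apart. It was the first peak of the gene in both lists.

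The other overlaps were partial. At 338 kb from the 5′ start, the melatonin peak at 34578855 to 34579855 (fold 4.84) and the untreated peak at 34577942 to 34579201 (fold 6.12) shared 346 bp. At 141 kb, the melatonin peak at 34775415 to 34776415 (fold 4.6) and the untreated peak at 34776352 to 34777352 (fold 10.57) shared 63 bp, inside the noncoding gene Gm46347. The overlap thus comes down to 1 near-identical site and 2 partial overlaps.

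Near misses added a few more sites. An untreated peak lay within 1 kb of 5 melatonin peaks and within 5 kb of 7. Those 7 are 31.8% of the melatonin peaks in the gene, and the 7 untreated peaks with a melatonin peak within 5 kb are 33.3%, beside 20.4% of all melatonin and 19% of all untreated peaks. The pair at 34539292 to 34540292 with melatonin and 34537406 to 34538709 without was separated by 583 bp, and lay 10.4 and 8.52 kb upstream of the internal start of Hdac9. The pair at 34282208 to 34283208 with melatonin and 34280390 to 34281390 without was separated by 818 bp. A melatonin peak of Hdac9 lay a median of 11.5 kb from the nearest untreated peak, and an untreated peak 11.1 kb from the nearest melatonin peak. Over chromosome 12 these medians were 25.4 kb for melatonin and 20.8 kb for untreated peaks. Since Hdac9 was chosen for its many peaks in these lists, nothing is read from these contrasts.

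The short distances between peaks of the 2 lists were shared with the sequence upstream of Hdac9, where peaks were as dense. In the 1000 kb upstream of the 5′ start there were 30 melatonin and 29 untreated peaks, or 3 and 2.9 per 100 kb. In the gene there were 2.53 melatonin and 2.42 untreated peaks per 100 kb, and over chromosome 12 there were 0.309 and 0.324. As Hdac9 was chosen for its many peaks, nothing is read from its contrast with the chromosome. In the 1000 kb upstream, the median distance to the nearest peak of the other list was 10.3 kb for melatonin and 10.2 kb for untreated peaks. There, 3 peaks of each list overlapped. None of those 30 melatonin and 29 untreated peaks lay in a protein-coding gene. Dense peaks were thus not confined to Hdac9 and were also found upstream, around Ahr, the aryl hydrocarbon receptor gene. Snx13, a sorting nexin gene between Hdac9 and Ahr, lay in a sparse stretch. Its nearest peaks were 49.9 kb away with melatonin and 53.5 kb away without.

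The dense region had a sparse stretch at the 5′ start of Hdac9 and an edge past its 3′ end. No peak lay between 34864057 and 34987614 with melatonin (124 kb), or between 34864092 and 35200986 in untreated MSCs (337 kb), both stretches covering the 5′ start. Within the untreated stretch, melatonin peaks were called upstream of the gene at 34987614 to 34988614 (fold 4.93), 70.5 kb from the start, and at 35197333 to 35198333 (fold 5.8), 280 kb from it. The melatonin peak at 70.5 kb was the last one inside the 100 kb limit, and the next peaks outside it lay 280 kb away with melatonin and 284 kb away without. On the 3′ side, the next 1000 kb held 4 melatonin and 2 untreated peaks, or 0.4 and 0.2 per 100 kb. On chromosome 12, 1 of 120 windows of 1 Mb held more melatonin peaks than the window with most of Hdac9 (24 peaks). Likewise 1 held more untreated peaks (21 peaks there), and the median window held 1 in each list. The higher window was in both lists the adjoining one, from 35000001 to 36000000, with 29 melatonin and 31 untreated peaks. Hdac9 was chosen for its many peaks, so this rank describes that choice.

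**Figure D3:**
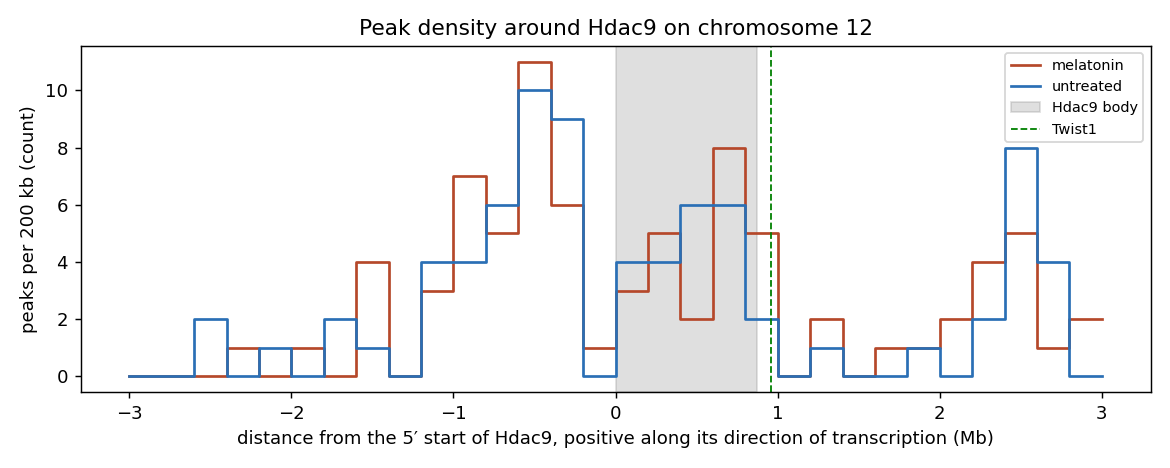
Peaks per 200 kb (y axis) by distance in Mb from the 5′ start of Hdac9, positive along its direction of transcription (x axis), for the melatonin and untreated libraries, with the gene shaded and Twist1 as a dashed line. Both libraries are dense upstream of the gene and within it, and the window just upstream of the start held 1 melatonin and 0 untreated peaks.

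Twist1 itself held no peak of either library. The nearest melatonin peak lay 54.0 kb away at 34013862 to 34015459, between Twist1 and Hdac9, with a signal of 20.8, a fold of 5.13 and a width of 1597 bp. The nearest untreated peak lay 30.3 kb away at 33990143 to 33991143, with a signal of 14.4 and a fold of 5.41. Each library therefore had 1 peak in the 87.7 kb between the genes, and these peaks were 22.7 kb apart. The melatonin one was the region of highest signal in or within 100 kb of Hdac9 in that list. A melatonin peak just inside the 3′ end of Hdac9, at 34049751 to 34050751 (fold 7.39), was also within 100 kb of Twist1.

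Beyond Twist1 no peak was called for some distance in either library. The next peak on that side lay 363 kb from the 3′ end of Hdac9 with melatonin and 335 kb without. Ferd3l, a basic helix-loop-helix gene next to Twist1, and Twistnb, an RNA polymerase I subunit gene, had no peak in the body in either list. On the upstream side, Prps1l1, a phosphoribosyl pyrophosphate synthetase gene, Snx13 and Ahr had none either, although a melatonin peak lay 1.18 kb from Prps1l1 and an untreated peak 121 kb from it. The melatonin peak near Prps1l1 is the one 70.5 kb upstream of Hdac9, and the untreated one lies inside Hdac9.

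Among noncoding genes inside Hdac9, Gm46347 held a peak of each list. Gm40384 held a melatonin peak (34094331 to 34095331, fold 5.22) and Gm51984 an untreated peak (34218538 to 34219538, fold 6.41). The gene table gives no exons, so peaks could not be split between exons and introns of Hdac9, and the known Twist1 enhancers were not located here.

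Few genes of like length were as densely marked as Hdac9. The gene was chosen for its peak number in these lists, so its ranks describe that choice and carry no test. Of 119 protein-coding genes of 600 to 1200 kb, 49 had no peak in either list and 46 had peaks in both. Hdac9 was exceeded in melatonin peaks by 1 of them and in untreated peaks by 2, and the same numbers held over all 21631 protein-coding genes. Counts of 20 or more in each list were found for 2 genes, Hdac9 and Lrmda, which is 0.00925% of genes. Per 100 kb of gene, 248 genes had more melatonin peaks and 235 more untreated peaks than Hdac9, and 52 and 61 of these were over 50 kb long.

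The 5 genes most like Hdac9 were chosen among 86 genes within 25% of its length, by the smallest summed difference in melatonin and untreated counts. Lrmda, a gene of melanocyte differentiation, had 29 melatonin and 24 untreated peaks, and Immp2l, a mitochondrial inner membrane peptidase gene also on chromosome 12, had 14 melatonin and 16 untreated peaks. Sugct, a glutarate CoA-transferase gene, had 10 with melatonin and 20 without. Pard3b, a cell polarity gene, had 16 with melatonin and 31 without, and Inpp4b, a phosphoinositide phosphatase gene, had 10 with melatonin and 14 without. Lrmda, Sugct and Immp2l had 0 overlapping peaks, Inpp4b had 1 of each list and Pard3b 2 of each list, beside 3 of each list in Hdac9. The median distance of a melatonin peak to the nearest untreated peak ranged from 6.34 kb in Pard3b to 23.3 kb in Immp2l. The 11.5 kb of Hdac9 lay within that range, but the genes were chosen for like counts and lengths, so nothing is read from it.

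**Figure D4:**
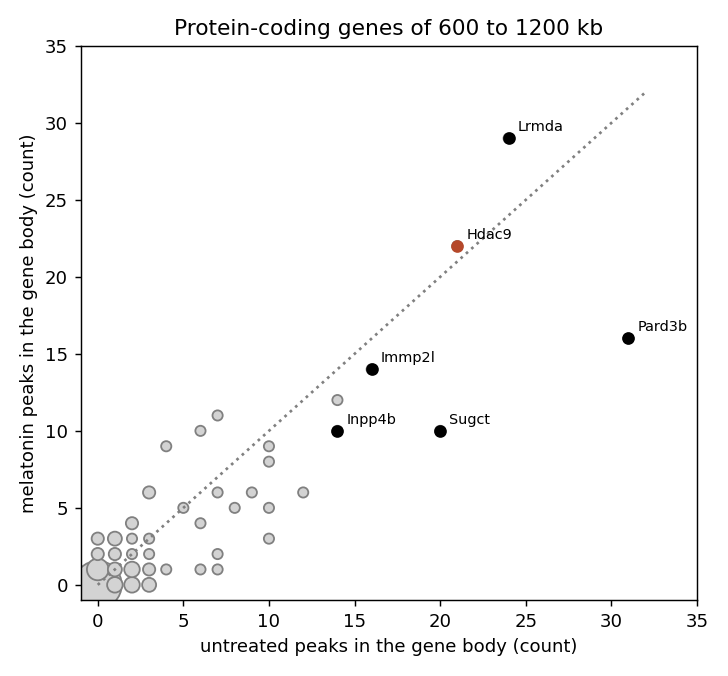
Untreated peaks (x axis) against melatonin peaks (y axis) in the body of 119 protein-coding genes of 600 to 1200 kb, where the area of a grey point grows with the number of genes at that place and the dotted line marks equal counts. Hdac9, at 22 melatonin and 21 untreated peaks, lies near the line, next to Lrmda at 29 and 24.

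The other class IIa genes had at most 4 peaks of a list in or within 100 kb. Over all 21631 protein-coding genes, 29.9% had a melatonin peak and 26.7% an untreated peak in that range. Of the 4 class IIa genes 3 and 2 did, counting Hdac9, which was chosen for its peaks. In the body, 5.54% of all genes had a melatonin peak and 5.27% an untreated peak, so a gene without one was usual. Hdac4 (chromosome 1, 91928779 to 92195702, minus strand), which restrains the maturation of cartilage cells, had 2 melatonin peaks and 1 untreated peak in the body, and 4 and 1 within 100 kb. The melatonin peaks in the body were at 92040069 to 92041069 (signal 14.1, fold 8.7) and 92072122 to 92073122 (signal 13.8, fold 4.24). The untreated peak was at 92193100 to 92194100 (signal 12.5, fold 4.23), near the 5′ end of the gene. None of them overlapped.

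Both libraries had a peak close to the 5′ end of Hdac4. A melatonin peak at 92196764 to 92197764 (fold 4.35), just outside the annotated gene, lay 2.66 kb from the untreated peak. They were 16.4 kb and 12.8 kb upstream of the start whose window RefSeq lists. The remaining melatonin peak, at 92278092 to 92279092 (fold 4.47), lay 82.4 kb from the gene. Per 100 kb of gene, Hdac4 had 0.749 melatonin and 0.375 untreated peaks, beside 2.53 and 2.42 in Hdac9. Hdac9 was chosen for its many peaks, so nothing is read from that contrast.

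Twist2, the paralog of Twist1, lies beside Hdac4 as Twist1 lies beside Hdac9. It is at 91801461 to 91848034 on chromosome 1, on the 3′ side of Hdac4. No peak of either list lay within 100 kb of Twist2, and the nearest were 122 kb away with melatonin and 139 kb away in untreated MSCs. The peaks near the 3′ end of Hdac9 thus had no counterpart between Hdac4 and Twist2.

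Hdac7 and Hdac5 had no peak in the gene, as was usual for protein-coding genes. Hdac7 (chromosome 15, 97792661 to 97844502), which represses RUNX2 in bone-forming cells, had 1 melatonin peak within 100 kb, 19.6 kb away at 97864145 to 97865145 (signal 13, fold 4.02), on the side of its starts. The nearest untreated peak lay at 97957288 to 97958288 (signal 12.9, fold 8.72), at 113 kb and so just outside the 100 kb limit. Hdac5 (chromosome 11, 102195747 to 102230172), which in bone represses the sclerostin gene, had no peak within 100 kb. Its nearest peaks were 333 kb away with melatonin and 1060 kb away without. Hdac7 and Hdac5 are 51.8 kb and 34.4 kb long, so there was less sequence in which a peak could fall than in Hdac9.

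**Figure D5:**
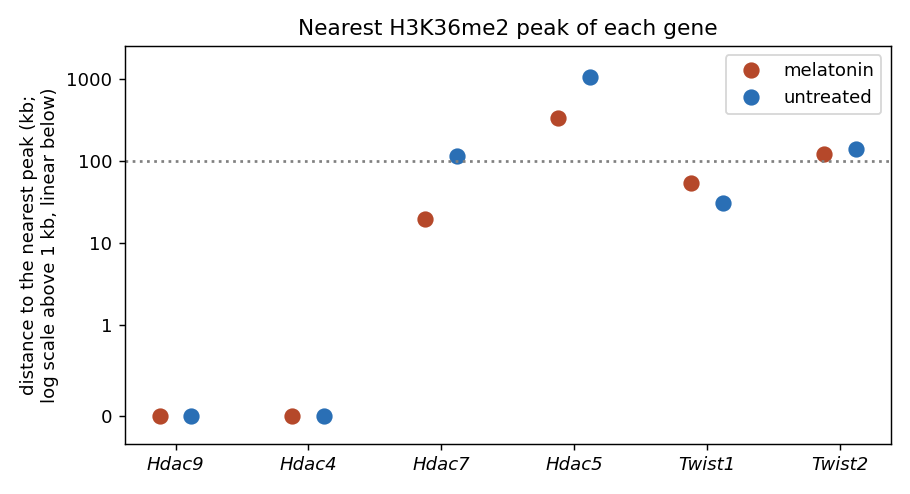
Distance in kb to the nearest peak (y axis, logarithmic above 1 kb and linear below) for the 4 class IIa deacetylase genes, Twist1 and Twist2, with the melatonin library left of the untreated library. Hdac9 and Hdac4 hold peaks of both lists, and the nearest peaks of Hdac5 lie 333 kb and 1060 kb away, beyond the 100 kb limit drawn as a dotted line.

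The other deacetylases and the class IIa partners had peaks nearby about as often as protein-coding genes in general. Of 45 genes in fixed lists of class I, IIb and IV deacetylases, sirtuins, MEF2 factors, kinases, 14-3-3 proteins and corepressors, 1 had a melatonin peak in the body and 1 an untreated peak, beside 5.54% and 5.27% of all protein-coding genes, and counts this small do not set the lists apart. The melatonin one was Camk2d, a CaMK family kinase gene, at 126654085 to 126655085 on chromosome 3 (fold 6.09). The nearest untreated peak of Camk2d lay 2.21 kb outside the gene. The untreated one was Mef2c, a MEF2 factor gene on chromosome 13, with 2 untreated peaks, the better at 83596572 to 83597572 (fold 4.84). The nearest melatonin peak of Mef2c lay 29.8 kb away.

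With 100 kb on both sides, 15 of the 45 genes (33.3%) had a melatonin peak and 12 (26.7%) an untreated peak, near the 29.9% and 26.7% over all protein-coding genes. Of 14 kinase genes 8 had one with melatonin (57.1%) and 6 without (42.9%). Of 4 class I deacetylase genes 1 had one with melatonin (25%) and 0 without, and of 7 sirtuin genes 1 (14.3%) and 0. For 4 MEF2 factor genes the counts were 2 and 2, for 7 genes of 14-3-3 proteins 2 and 3, and for 6 corepressor genes 1 and 1. Among the deacetylases outside class IIa, Hdac2, a class I enzyme gene, had a melatonin peak 49.0 kb away and none within 100 kb in untreated MSCs. Sirt5, a mitochondrial sirtuin gene, likewise had a melatonin peak 88.9 kb away and none within 100 kb in untreated MSCs. Hdac1, Hdac3, Hdac6, Hdac8, Hdac10, Hdac11 and the other 6 sirtuin genes had no peak within 100 kb in either list.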

How the data were processed

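The sources used were 2 deposited peak lists, 1 per ChIP library, called with HOMER findPeaks in histone style, each against its own input and without pooling. Per the file headers, the window was 1000 bp, the fold needed was 4 and the command line switched the local filter off. Per the submitters' processing notes, BWA 0.7.13, Picard 1.126 and MACS2 2.1.0 were used with build mm39. The deposited signal is ChIP tags per 10000000, and the deposited ChIP and input tags are a signal scaled to the shallower library, per the file headers. The fold is the authors' ratio of ChIP to input tags, the p-value is the authors' unadjusted Poisson p, and the findPeaks score was deposited but not used in a result.

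Coordinates were read as GRCm38, because the last deposited peaks on chromosomes 3 and 7 (ends 159805034 and 145328623) lie beyond those chromosomes in mm39. In both lists, fewest peak midpoints fell inside protein-coding genes when nothing was shifted, among shifts of up to 1000 kb in steps of 10 kb. At no shift the share was 29.1% with melatonin and 27.8% without, beside medians over the shifts of 42.0% and 39.5%. Peaks of both lists thus lay in protein-coding genes less often than shifted peaks did. On chromosome 12 the minimum was at no shift for the pooled lists (36%) and the melatonin list. In the untreated list it was at 670 kb there (34.4%, against 37.2% at no shift).

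Genes, starts and promoter sequences came from RefSeq tables of GRCm38.p6, and every listed symbol matched. Overlap meant 1 bp or more, and distances run from edge to edge. Counting was checked on simulated peaks. Python 3.11.15, pandas 2.3.3, NumPy 2.4.6 and SciPy 1.17.1 were used.

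Members, lists and rules were chosen with earlier results of these data known. The text names the 5 members, Twist2, list genes with a peak in the body, the 3 nearest protein-coding genes on each side of Hdac9 and the 5 genes most like it; Hdac2, Sirt5, the list genes without a peak and the noncoding genes inside Hdac9 were named after their values were seen. No test between conditions was possible with 1 library each.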

Additional observations from a re-analysis of the deposited data

How the results depend on the processing

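The count of Hdac9 peaks depended mainly on the fold required. At a fold of 6 or more it was 7 with melatonin and 7 without. Melatonin counts between 19 and 24 and untreated counts between 18 and 22 were found under a p of at most 1e-05, equal list lengths, 100 kb flanks, or the gene moved by 50 kb to either side, the last added after seeing the data. The number of Hdac9 sites called in both libraries depended on the rule for sharing. It was 1 when an overlap of 50% of either peak was required, 5 for edges within 1 kb and 7 for edges within 5 kb. The median distance from a melatonin peak to the nearest untreated peak became 74.1 kb when both lists were limited to a fold of 6, which leaves 7 melatonin peaks in the gene. Of 32 recounts around Hdac4, Hdac5, Hdac7 and Twist1 with other flanks or a fold of 6, 18 were within 1.5 times the count given and 14 were not, all of them changes by at most 6 peaks. Peaks in Hdac9 rested on a signal as low as 12 per 10000000 tags with melatonin and 11.4 without, so a place without a peak may still carry the mark below what this depth shows. No paired analysis was possible because each condition had 1 library and the labels give no replicate numbers. Leaving out a replicate could not be done for the same reason.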
